A study of Homo sapiens with 4 samples.

Results

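The mitochondrial ribosomal protein genes were taken as every protein-coding gene whose symbol is MRPL or MRPS followed by digits, and 78 of the 19586 protein-coding genes in the counted annotation met that rule. Their mRNA was measured in LNCaP cells, a human prostate cancer line that responds to androgen, kept in hormone-depleted medium. In 2 libraries the cells had received 1 nM R1881, a synthetic androgen, with DMSO as vehicle, and in the other 2 they had received 1 nM R1881 with 50 µM CPI-455, an inhibitor of the KDM5 histone demethylases. Treatment lasted 72 h in both groups. All 4 libraries carry the androgen and all come from 1 cell line, so the comparison is that of the inhibitor with its vehicle in the presence of R1881. Counted fragments came to 19623553 and 20690819 with vehicle and to 9522920 and 5401588 with CPI-455.

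Human mitochondria carry their own ribosome, the mitoribosome, which makes the few proteins that mitochondrial DNA encodes, all of them parts of the respiratory chain and ATP synthase. Its rRNAs are transcribed inside the organelle, but its proteins are encoded in the nucleus, made in the cytosol and imported. The large subunit forms peptide bonds and the small subunit reads the mRNA. Each holds proteins with a counterpart in the bacterial ribosome and proteins gained in mitochondria.

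Subunits, bacterial counterparts and regions of the mitoribosome were assigned by hand from general knowledge of its structure. By that assignment, 51 of the 78 genes encode large-subunit proteins and 26 encode small-subunit proteins. Of the large-subunit genes, 30 have a bacterial counterpart and 21 do not or are diverged copies, and the latter include MRPS30 and MRPS18A, whose proteins sit in the large subunit in spite of their names. The small subunit divides into 16 and 10. The remaining gene, MRPS36, encodes a protein of the 2-oxoglutarate dehydrogenase complex that was named as a ribosomal protein before its place was known. All 78 genes had enough counts to be tested.

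The start-site regions of these genes share short motifs to an unequal degree. RefSeq windows on GRCh38.p14, running from 250 bases before to 50 bases after the start, were found for 69 of the 78 genes. The short YY1 motif AAGATGG, read on either strand as were all motifs, lay in 23 of the 69 windows (33.3%) and in 6.45% of the 15226 windows of protein-coding genes. Its long form, in which CGGC follows directly, lay in 10 windows (14.5%) and in 215 of all (1.41%). The ETS motif CCGGAAG lay in 29 windows (42.0%) against 14.4% of all, the SP motif GGGCGGG in 49.3% against 45.2%, and the NRF1 core GCATGCGC in 8.70% against 4.28%. These are matches of letters and not measured binding. In 9 of the 10 windows the long YY1 letters run along the gene's own strand downstream of the start, and in all 9 the ATG inside them is an annotated start codon. The windows of 5 of these genes are printed because they span the range of responses described next, with the YY1 letters in capitals. MRPL38, MRPS24 and MRPL22 were called higher with CPI-455, MRPS18B was not called and MRPS18A was called lower.
MRPL38 (chr17:75904860-75904886, reverse strand): ccggagggAAGATGGCGGCgccctggt
MRPS24 (chr7:43869480-43869506, reverse strand): cttggcccAAGATGGCGGCctccgtgt
MRPL22 (chr5:154941100-154941122, forward strand): gagggcgaAAGATGGCGGCggca
MRPS18B (chr6:30617855-30617881, forward strand): cgtacgtcAAGATGGCGGCgtctgtat
MRPS18A (chr6:43687764-43687790, reverse strand): ggtttttgAAGATGGCGGCcctcaagg

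MRPL27 and MRPS18A are printed for the ETS motif, again in capitals, since they too moved in opposite directions.
MRPL27 (chr17:50373178-50373200, reverse strand): tttcgagaCCGGAAGtgagtgat
MRPS18A (chr6:43687808-43687830, reverse strand): gctacgttCCGGAAGcggaaatg

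With CPI-455, 17 of the 78 genes were called higher (21.8%) and 3 were called lower (3.85%), a call being a change of at least 2-fold with a false discovery rate (FDR, Benjamini-Hochberg over all genes tested) below 0.05 from the quasi-likelihood test of edgeR. Among the 17600 genes tested, 21% were called higher and 21.3% lower, and among the 13813 protein-coding genes tested the shares were 15.6% and 24.4%. The share called higher was thus close to that of all genes, and the share called lower was below it. Scaling by library totals in place of TMM gave 14 called higher and 6 lower of the 78. Removing the dependence of the counts on exon length and GC, a setting that also replaces the TMM scaling, gave 15 and 7. Upper-quartile scaling gave 25 and 2, with 24.4% of all genes called higher. A test against the 2-fold limit (glmTreat) gave 12 and 1, with 13.9% of all genes called higher. On the FDR alone, 40 of the 78 genes were higher and 13 were lower, against 29.8% and 32.8% of all genes and 26.3% and 38.7% of protein-coding genes. A further 33 genes therefore passed the FDR with changes under 2-fold. In 48 genes both CPI-455 libraries lay above both vehicle libraries (61.5%, against 39.1% of all genes and 34.5% of protein-coding genes), in 21 they lay below (26.9%, against 42.8% and 48.8%), and in 9 the groups overlapped.

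The median log2 fold change of the 78 genes, CPI-455 over vehicle, was 0.41 (interquartile range -0.16 to 0.87), with a median SE of 0.15. It was -0.04 over all genes tested and -0.21 over protein-coding genes. Levels are given as CPM, the counts scaled to library size by edgeR. Summed over the 78 genes they were 4005 and 4024 CPM with vehicle and 5109 and 5124 CPM with CPI-455, which is 1.27-fold higher. The genes made up 0.431% and 0.425% of all counts in the vehicle libraries and 0.477% and 0.478% in the CPI-455 libraries. In bulk RNA, a change in the make-up of the cultures and a change in the RNA per cell cannot be told apart. The methods call the replicates biological, and the p-values measure only the spread between these samples.

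**Figure D1:**
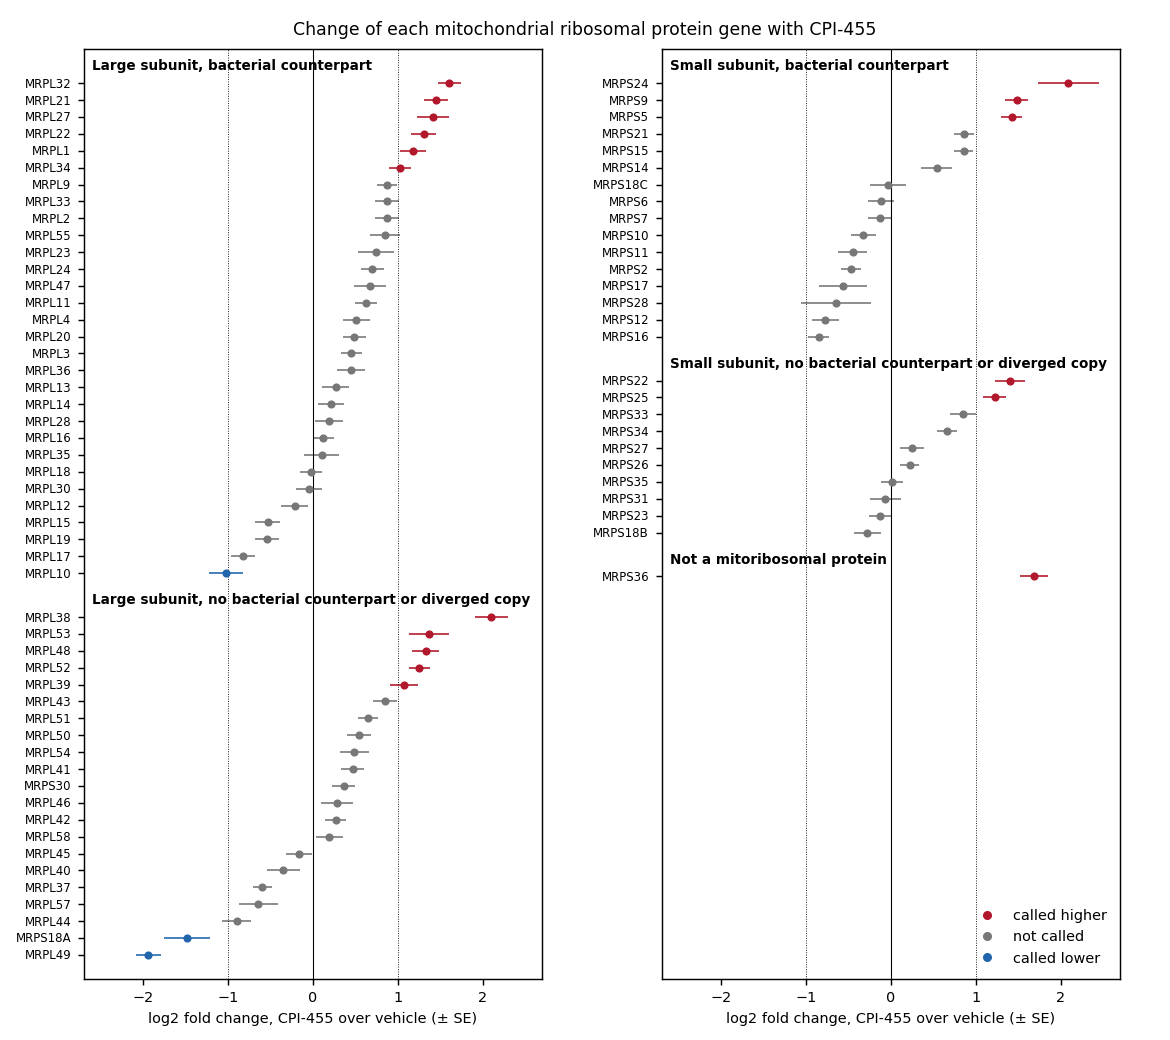
Log2 fold change (CPI-455 over vehicle, ± SE derived from the F statistic of the test, 2 libraries a group) of each of the 78 genes, grouped by subunit and by whether the protein has a bacterial counterpart. Red marks the 17 genes called higher, blue the 3 called lower, and the dotted lines mark a 2-fold change, with MRPL38 at the upper end (2.10) and MRPL49 at the lower end (-1.94).

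Genes of both subunits lay on either side of 0. Of the 51 large-subunit genes, 11 were called higher (21.6%) and 3 lower (5.88%), and 29 and 9 passed the FDR. Of the 26 small-subunit genes, 5 were called higher (19.2%) and none lower, and 10 and 4 passed the FDR. The shares called higher in both subunits were near the 21% of all genes tested and above the 15.6% of protein-coding genes. The shares called lower were below the 21.3% of all genes and the 24.4% of protein-coding genes. The median log2 fold change was 0.47 in the large subunit (interquartile range -0.04 to 0.87) and -0.01 in the small subunit (-0.31 to 0.86). The upper quartiles were thus nearly equal and the median and lower quartile were lower in the small subunit, while the lowest single values, down to -1.94 against -0.85, were in the large subunit. The summed CPM were 1.26-fold higher in the large subunit and 1.27-fold higher in the small subunit. The difference between the subunits was not tested, because genes are not replicates.

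The large-subunit gene with the highest fold change was MRPL38 (ENSG00000204316, chr17:75898643-75905413 on GRCh38), which encodes a protein of the central protuberance gained in mitochondria. It was at 8.52 and 7.28 CPM with vehicle and at 34.1 and 33.7 CPM with CPI-455. The groups lay far apart, with a log2 fold change of 2.10 ± 0.20 (SE, FDR = 1.79e-05). Of its exon bases, 41.1% are shared with other annotated genes, and fragments falling on shared bases were left out of the authors' counts. MRPL48, another protein of the central protuberance, was at 34.6 and 37.8 CPM with vehicle and at 78.6 and 104 CPM with CPI-455. Its log2 fold change was 1.33 ± 0.16 (FDR = 8.77e-05), and its CPI-455 libraries lay further from each other than its vehicle libraries. The other 4 proteins listed for this region, MRPL46, MRPL58, MRPL18 and MRPL40, had log2 fold changes from -0.35 to 0.29, and none was called.

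MRPL32 encodes the counterpart of bacterial L32, which is cleaved by the m-AAA protease after import and before it joins the subunit. Its values were 38.6 and 33.0 CPM with vehicle and 106 and 112 CPM with CPI-455, a log2 fold change of 1.61 ± 0.14 (FDR = 9.87e-06). MRPL21, the counterpart of bacterial L21, was at 32.3 and 35.0 CPM with vehicle and at 99.9 and 83.5 CPM with CPI-455 (log2 fold change 1.45 ± 0.14, FDR = 2.48e-05). MRPL27, whose bacterial counterpart reaches towards the site of peptide bond formation, went from 15.4 and 12.8 CPM to 40.1 and 34.7 CPM (1.41 ± 0.19, FDR = 0.000143). In each of these 3 genes every CPI-455 library exceeded both vehicle libraries by more than 2-fold. MRPL53, a protein gained in mitochondria, was at 6.49 and 7.23 CPM with vehicle and at 17.8 and 17.6 CPM with CPI-455 (1.37 ± 0.23, FDR = 0.000722). It shares 45.2% of its exon bases with CCDC142, and once the dependence on exon length and GC was removed its log2 fold change was 0.76 and it was no longer called. The other large-subunit genes called higher were MRPL22, MRPL52, MRPL1, MRPL39 and MRPL34, with log2 fold changes from 1.02 to 1.30.

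MRPL22 was the only one of the 6 proteins listed for the polypeptide exit tunnel that was called, at 25.7 and 29.0 CPM with vehicle and 67.02 and 68.01 CPM with CPI-455. MRPL23, MRPL24 and MRPL47 passed the FDR below 2-fold, with log2 fold changes from 0.67 to 0.74. MRPL17 passed it in the other direction, at 61.3 and 62.1 CPM with vehicle and 36.9 and 32.5 CPM with CPI-455 (-0.82, FDR = 0.000829). MRPL45, which holds the mitoribosome at the inner membrane, had a log2 fold change of -0.16 (FDR = 0.374).

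The 3 genes called lower all encode large-subunit proteins. MRPL49 (ENSG00000149792, chr11:65122183-65127371 on GRCh38), a protein gained in mitochondria, was at 98.3 and 90.8 CPM with vehicle and at 22.6 and 27.2 CPM with CPI-455. That change of -1.94 on the log2 scale ± 0.15 (FDR = 6.18e-06) was the lowest of the 78. MRPS18A was at 20.03 and 21.89 CPM with vehicle and at 9.11 and 5.35 CPM with CPI-455 (-1.48 ± 0.27, FDR = 0.00102), and 47.0% of its exon bases are shared with RSPH9. MRPL10 was at 66.0 and 69.1 CPM with vehicle and at 40.0 and 25.2 CPM with CPI-455, so that both CPI-455 libraries were lower but to an unequal extent (-1.02 ± 0.20, FDR = 0.00156). MRPL10 was no longer called without CPI-455 replicate 2 (-0.80), with upper-quartile scaling (-0.85) or with a minimum of 10 counts in every library (-0.98).

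MRPL10 belongs to the stalk, the flexible arm of the large subunit that receives the translation factors, and neither of its partners there was called. MRPL12, which forms the tip of the stalk with copies of itself, was at 32.1 and 32.7 CPM with vehicle and at 27.8 and 28.0 CPM with CPI-455 (-0.22, FDR = 0.253). For MRPL12, 68.2% of its exon bases are shared with another annotated gene, and once the dependence on length and GC was removed it was called lower at -1.19. MRPL11, at the base of the stalk, passed the FDR in the other direction with 57.0 and 58.0 CPM against 82.7 and 94.8 CPM (0.62, FDR = 0.00243).

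The MRPS18 family holds 3 related proteins placed in different parts of the mitoribosome. MRPS18A in the large subunit was called lower, while MRPS18B and MRPS18C in the small subunit were not called. MRPS18B was at 63.9 and 69.5 CPM with vehicle and at 62.5 and 46.6 CPM with CPI-455 (-0.28, FDR = 0.159). MRPS18C was at 16.6 and 14.8 CPM against 16.6 and 13.7 CPM (-0.04, FDR = 0.896), with overlapping groups, and it shares 40.2% of its exon bases with ABRAXAS1. The start-codon windows of MRPS18A and MRPS18B printed above both hold the YY1 letters, and MRPS18C does not hold them in its window.

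Among the small-subunit genes, MRPS24, MRPS9 and MRPS5 were called higher in the class with a bacterial counterpart. MRPS24 encodes the protein that lines the mRNA entry with MRPS5, and it was the lowest of all 78 genes in CPM per kb of exon (1.95 over the 4 libraries). It had 42 and 41 counted fragments with vehicle and 73 and 42 with CPI-455, which are 1.99, 1.88, 8.21 and 8.33 CPM (2.09 ± 0.36, FDR = 0.000795). A readthrough gene, URGCP-MRPS24, shares 23.2% of its exon bases. MRPS5 was far higher in CPM, at 74.6 and 70.3 with vehicle and at 207 and 181 with CPI-455 (1.43 ± 0.12, FDR = 1.06e-05). MRPS9, whose tail reaches the tRNA in the P site, was at 26.6 and 30.2 CPM with vehicle and at 80.2 and 78.3 CPM with CPI-455 (1.48 ± 0.14, FDR = 1.93e-05). The other 3 proteins listed for the decoding site lay below 0: MRPS12 had a log2 fold change of -0.77 (FDR = 0.00231), MRPS11 of -0.45 (FDR = 0.0437) and MRPS7 of -0.13 (FDR = 0.46).

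MRPS22 and MRPS25, small-subunit proteins gained in mitochondria, were the other genes of the subunit called higher. MRPS22 was at 29.2 and 31.4 CPM with vehicle and at 67.7 and 93.6 CPM with CPI-455 (1.40 ± 0.17, FDR = 9.78e-05). MRPS25 was at 49.8 and 45.1 CPM with vehicle and at 120 and 101 CPM with CPI-455 (1.22 ± 0.14, FDR = 5.07e-05), with 22.2% of its exon bases shared with NR2C2. In both genes the groups were well separated. No small-subunit gene was called lower, and the lowest log2 fold change was that of MRPS16, at 110 and 105 CPM against 60.6 and 58.3 CPM (-0.85, FDR = 0.000247). MRPS36, which is no part of the mitoribosome, had a log2 fold change among the 3 highest under the rule. It was at 15.5 and 16.1 CPM with vehicle and at 46.9 and 55.7 CPM with CPI-455 (1.69 ± 0.17, FDR = 2.32e-05), and none of its exon bases are shared.

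**Figure D2:**
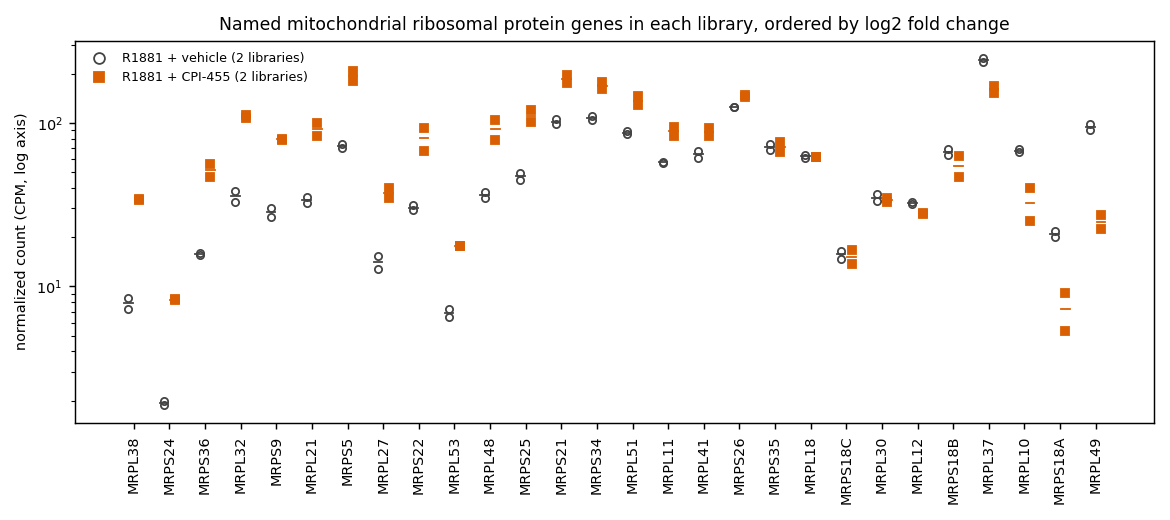
Normalized counts (CPM, log axis) of the named genes in each library, ordered by log2 fold change, with open circles for the 2 vehicle libraries, squares for the 2 CPI-455 libraries and bars for group means. MRPL38 and MRPS24 start from low vehicle values at the left, the 2 groups overlap in MRPL18 and MRPL30, and MRPL10 and MRPS18A show CPI-455 libraries that lie apart from each other.

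The genes highest per kb of exon changed by less than 2-fold, but MRPS5, called higher, had the highest mean CPM with CPI-455 (194). Per kb of exon, MRPS34 was the highest of the 78 at 126 CPM per kb over the 4 libraries, followed by MRPS26 at 120, MRPS21 at 87.4 and MRPL37 at 78.9, and the highest was 64.4-fold above the lowest. MRPS34 was at 110 and 104 CPM with vehicle and at 177 and 160 CPM with CPI-455 (0.66, FDR = 0.000933). MRPS26 was at 125 CPM in both vehicle libraries and at 144 and 148 CPM with CPI-455 (0.22, FDR = 0.107). The sign of MRPS34 and MRPS26 turned when the dependence on length and GC was removed (-0.25 and -0.68).

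MRPS21 was at 105 and 98.3 CPM with vehicle and at 174 and 196 CPM with CPI-455 (0.86, FDR = 0.000194). MRPL37, the highest large-subunit gene, went the other way, at 235 and 249 CPM with vehicle and at 152 and 168 CPM with CPI-455 (-0.60, FDR = 0.00139). The groups of MRPS21 and of MRPL37 did not overlap. MRPL51 and MRPL41, the next in the large subunit, had log2 fold changes of 0.65 and 0.47. MRPL18, whose bacterial counterpart binds the small rRNA of the central protuberance, was at 61.4 and 64.0 CPM with vehicle and at 61.6 and 61.5 CPM with CPI-455 (-0.03, FDR = 0.87). MRPL30 and MRPS35 were also near 0 (-0.05 and 0.01). Between the groups, Spearman's rho of the CPM per kb was 0.784 (over the 78 genes, which share their libraries and lengths).

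Replicates lay close together in most genes. The absolute log2 ratio between the 2 vehicle libraries had a median of 0.0919 over the 78 genes and a maximum of 0.339, and that between the 2 CPI-455 libraries had a median of 0.18. Only MRPS28 differed by more than 2-fold between its CPI-455 libraries, at 3.04 and 7.73 CPM, against 8.001 and 7.967 CPM with vehicle.

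Part of the 78 genes overlapped other annotated genes, and the counting used no strand. The share of all genes with such overlap was not computed. Of the 78 genes, 14 share more than 20% of their exon bases, and of these 4 were called higher and 1 lower (median 0.75). Of the 64 with less, 13 were called higher and 2 lower (0.28). Of the 38 with no shared base, 8 were called higher and 1 lower (0.41). Among all genes tested, 21% were called higher and 21.3% lower, and among protein-coding genes 15.6% and 24.4%. The differences between these sets were not tested. Pseudogenes named after these genes numbered 79, of which 18 had any fragment, and their summed counts were 0.120% to 0.196% of those of the 78 genes.

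In 19 of the 78 genes (24.4%) the start lay head to head with that of a protein-coding gene on the other strand, with starts within 1000 bases or overlapping by up to 200, against 8.73% of the 19586 protein-coding genes. MRPL46 and MRPS11 face each other, so these were 18 distinct pairs, of which 14 had starts within 100 bases of each other. The partners had a log2 fold change of the same sign in 12 pairs and of the opposite sign in 6. Some of these signs are weak, in pairs of both kinds. MRPL18, MRPL30 and MRPS18C lay near 0 (-0.03, -0.05 and -0.04). The neighbours SLC7A7 and LRRC46 had few counts and did not pass the FDR (0.335 and 0.401). How often other head-to-head pairs share a sign was not computed, and 51 of the 78 genes lay above 0. MRPL32 and the proteasome gene PSMA2 were both higher (1.61 and 2.31), as were MRPL27 and EME1, a subunit of a DNA junction endonuclease (1.41 and 1.33). PSMA2 had only 74 and 65 counted fragments with vehicle and 108 and 104 with CPI-455. MRPL43 and TWNK, which encodes the mitochondrial DNA helicase, parted (0.85 and -2.82, FDR of TWNK 2.70e-06), as did MRPL50 and ZNF189 (0.54 and -1.71). MRPL36 faced NDUFS6, a complex I subunit, and both lay above 0 (0.45 and 1.74). Pearson's r over the 18 pairs was 0.329 and Spearman's rho 0.348, given as a description since the pairs share their libraries and some share exon bases.

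**Figure D3:**
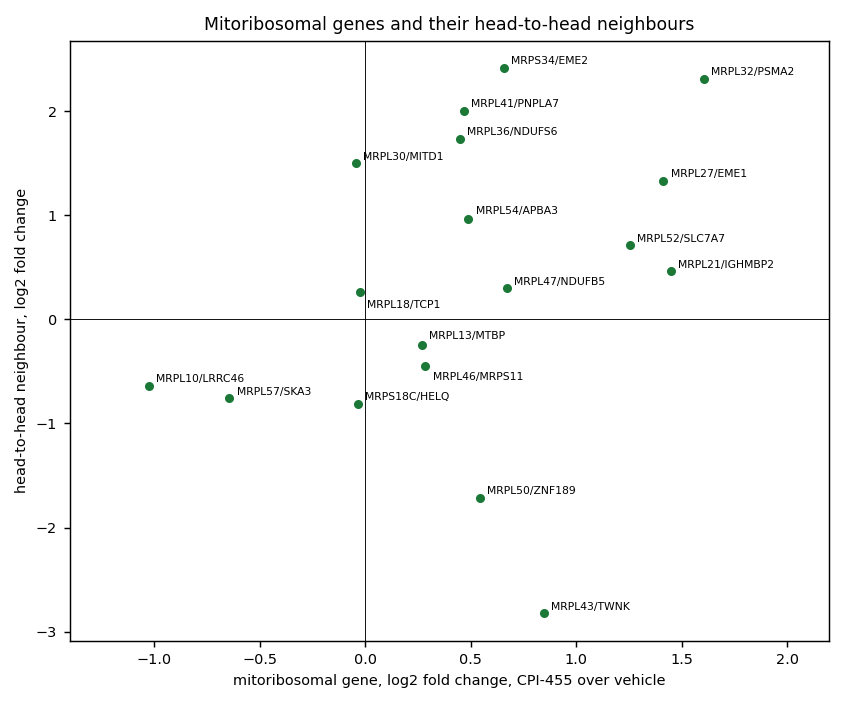
Log2 fold change (CPI-455 over vehicle) of 18 mitoribosomal genes on the x axis and of the gene facing each on the y axis, one labelled point a pair. Points in the upper right and lower left are the 12 pairs of the same sign, and MRPL43/TWNK lies furthest down at -2.82.

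The motifs printed above were held by genes that lay on both sides of 0. The 10 genes with the long YY1 motif had a median log2 fold change of 0.41, against 0.45 for the other genes with a window, and they ran from MRPL38 at 2.10 to MRPS18A at -1.48. Genes with the ETS motif had a median of 0.49 against 0.32, those with the SP motif 0.24 against 0.45, and those with the NRF1 core 0.61 against 0.45.

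A further 5 mitoribosomal proteins are encoded by genes with other symbols, and all 5 had a log2 fold change above 0 (median 0.71). Of the 17600 genes tested, 8602 lay above 0, and of the 13813 protein-coding genes, 5995. Among the 5 genes 2 were called higher (40%), against 21% of all genes tested and 15.6% of protein-coding genes. DAP3, the GTP-binding protein of the small-subunit head, was at 111 and 117 CPM with vehicle and at 227 and 239 CPM with CPI-455 (1.03 ± 0.11, FDR = 4.09e-05) and was called higher. CHCHD1, a small-subunit protein with a cysteine-rich fold, was at 24.7 and 17.8 CPM against 43.9 and 54.1 CPM (1.20 ± 0.20, FDR = 0.000654) and was also called. Both lie near the 2-fold limit: the call of DAP3 was lost without vehicle replicate 1 (0.97), without CPI-455 replicate 2 (0.95), with library totals (0.84) and without the filter (0.88). The call of CHCHD1 was lost without vehicle replicate 2 (0.96) and with the dependence on length and GC removed (0.97), where PTCD3 was called (1.06). GADD45GIP1 and PTCD3 passed the FDR below 2-fold (0.71 and 0.54), and AURKAIP1 did not pass (0.32, FDR = 0.115).

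Of the RNA parts of the mitoribosome, 1 rRNA was called higher, 1 rRNA was not called and the tRNA was not detected with CPI-455. MT-RNR2, the large-subunit rRNA, was counted 89600 and 82317 times with vehicle and 98459 and 44921 times with CPI-455. Scaled to library size, these are 4242 and 3769 CPM against 11072 and 8907 CPM (log2 fold change 1.32 ± 0.13, FDR = 2.10e-05). MT-RNR1, the small-subunit rRNA, was counted 24323 and 21372 times with vehicle against 10938 and 3016 times with CPI-455. In CPM it was at 1152 and 979 with vehicle and at 1230 and 598 with CPI-455, so that the groups overlapped (-0.22 ± 0.26, FDR = 0.495). Without CPI-455 replicate 2 the log2 fold change of MT-RNR1 was 0.16. MT-TV, the valine tRNA that takes the place of a small rRNA in the large subunit, was counted 121 and 101 times with vehicle and not at all in either CPI-455 library, which is at least 11.1-fold lower against a floor of 3 counts per library. How RNA was selected for these libraries is not given in the sources used here.

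Genes that build the mitoribosome went both ways, with 5 of 26 assembly factors called higher and 5 called lower (19.2% each way, against 21% and 21.3% of all genes tested). These shares were near those of all genes, and among protein-coding genes tested the shares were 15.6% and 24.4%. The median change of the assembly factors was -0.19 on the log2 scale, against -0.21 for protein-coding genes. GTPBP6, METTL17 and MTG1, of which GTPBP6 and MTG1 are GTPases of the late steps, were called higher (1.84, 1.52 and 1.60). MTG1 shares 45.5% of its exon bases with other genes. DDX28, an RNA helicase of large-subunit assembly, was at 40.6 and 47.0 CPM with vehicle and at 10.2 and 8.72 CPM with CPI-455 (-2.19 ± 0.19, FDR = 1.21e-05). MRM2 and MRM3, which methylate the large-subunit rRNA at neighbouring positions, were called lower too (-2.04 and -1.81, FDR = 1.20e-05 and 1.76e-05). DDX28 and MRM3 share 22.5% and 34.9% of their exon bases with other genes.

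Of 18 genes of mitochondrial translation and mRNA handling, 2 were called higher (11.1%) and 5 lower (27.8%), against 15.6% and 24.4% of the protein-coding genes tested, and the median log2 fold change of -0.21 equalled that of protein-coding genes. SLIRP, which binds mitochondrial mRNA together with LRPPRC, was at 19.2 and 17.4 CPM with vehicle and at 89.2 and 107 CPM with CPI-455 (2.41 ± 0.15, FDR = 2.17e-06). Its partner LRPPRC was called lower (-1.08, FDR = 5.87e-05). MRRF, the ribosome recycling factor, was at 57.7 and 55.6 CPM with vehicle and at 266 and 223 CPM with CPI-455 (2.11 ± 0.13, FDR = 1.83e-06), and OXA1L, the inner-membrane insertase that meets the exit tunnel, passed the FDR below 2-fold (0.81). The largest falls were those of GUF1, an elongation factor, TACO1, an activator of translation, and TSFM, the partner of the elongation factor Tu (-1.64, -1.38 and -1.10). Of the 5 called lower, 3 remained so without vehicle replicate 2.

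**Figure D4:**
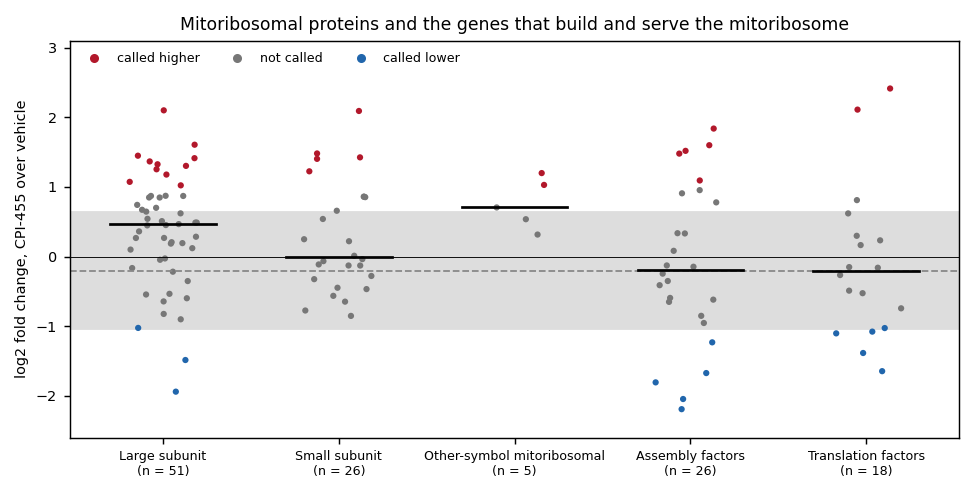
Log2 fold change (CPI-455 over vehicle) of each gene of the 2 subunits, the 5 mitoribosomal proteins under other symbols, 26 assembly factors and 18 translation factors, with bars at the medians. The grey band is the interquartile range of the 13813 protein-coding genes tested and the dashed line their median of -0.21, and the bars of the large subunit (0.47) and of the other-symbol proteins (0.71) lie highest.

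Markers of the cells were checked in the same libraries. The 5 LNCaP markers reported here, KLK3, TMPRSS2, KRT8, KRT18 and FOLH1, were all detected, and all passed the FDR in the lower direction with CPI-455, 3 of them (KLK3, FOLH1 and KRT8) by at least 2-fold. Their summed level was 676 and 630 CPM in the vehicle libraries and 249 and 295 CPM in the CPI-455 libraries. Of the 5 markers of other cell types, KRT5 was at 0 in every library, PTPRC had 8 counts in 1 library and 0 in the others, and PECAM1 had at most 4 counts. VIM and COL1A1 were called higher with log2 fold changes of 1.04 and 1.00. VIM was abundant in every library, at 651 and 737 CPM with vehicle and at 1337 and 1520 CPM with CPI-455. COL1A1 was low, at 4.97 and 4.03 CPM with vehicle and at 10.1 and 7.73 CPM with CPI-455. The part of these marker changes in the values of the mitoribosomal genes was not tested.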

How the data were processed

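RNA-seq of 4 LNCaP cultures was used, with groups and replicates from the sample labels. The authors trimmed reads with Trim Galore, aligned them to GRCh38 with STAR and ran featureCounts v1.5.0-p1 on the Ensembl 83 annotation. The deposited files hold raw fragment counts per gene, without any normalization. Per the file headers, the counting ignored strand and skipped multi-mapping fragments and those on exons of several genes. The labels and the methods give different DMSO concentrations, and none is stated here.

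Symbols came from a name table (56558 of 60675 identifiers matched) and gene types from GENCODE. The rule matched 164 symbols, of which 78 were protein-coding. The tests used edgeR 4.0.16 in R 4.3.3, with TMM factors of 0.936 to 1.08, filterByExpr at a minimum of 10 counts, and glmQLFit and glmQLFTest over 17600 genes without covariates. Calls needed an FDR (Benjamini-Hochberg) below 0.05 and a 2-fold change. A log2 fold change is CPI-455 over vehicle. Its SE was derived from the test, as the absolute log2 fold change divided by the square root of the F statistic. A count of 3 corresponds to 0.137 to 0.595 CPM, a limit that covers counting error only. The script was tested on simulated data. The same replicate numbers are used in both groups, but nothing says that they pair cultures, and the correlation of the deviations of the libraries numbered 1 was 0.04.

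Genes were named by rule: in each subunit the 6 called genes with the largest rise, the 4 with the largest fall, the 3 highest in CPM per kb and the 2 nearest 0, then the stalk and MRPS18 genes, MRPS36, the other-symbol proteins, the rRNAs and the 3 largest changes in each direction among assembly and translation factors. Further genes were named after their values were seen. The subunits, classes and regions were assigned by hand. The members and lists were chosen with earlier results of these data known. Some listed marker genes are not reported here.

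Alternatives were RLE, upper-quartile and library-total scaling, TMM without mitochondrially encoded genes and MALAT1, no filter, 10 counts in every library, DESeq2 1.42.0, the likelihood-ratio test, glmTreat, an FDR below 0.01, a replicate block, removal of a smooth dependence on exon length and GC (mgcv 1.9.3), each library left out, and subunits by symbol prefix. Where the dependence on length and GC was removed, the libraries were scaled by the fitted trend in place of TMM. Values under that setting therefore differ from the main ones in scaling as well as in length and GC.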

Additional observations from a re-analysis of the deposited data

How the results depend on the processing

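Scaling set the place of 0. The median log2 fold change of all genes tested was -0.04 with TMM, 0.14 with upper-quartile scaling and -0.23 with library totals, while that of the 78 genes stayed 0.44 to 0.45 above it under these and under RLE and DESeq2. It was 0.66 above without the filter and 0.33 above with a trend on length and GC removed. The median of the 78 genes was 0.43 with RLE and with DESeq2, 0.58 with upper-quartile scaling, 0.22 with library totals, 0.25 without the filter, 0.45 with 10 counts in every library, and 0.35 with the trend removed, with or without the replicate block. The same order of settings, from upper-quartile scaling to library totals, no filter and the trend removed, gave 0.64, 0.28, 0.31 and 0.40 for the large subunit (0.39 with the block), 0.163, -0.202, -0.167 and 0.154 for the small subunit (0.15 with the block), 0.88, 0.52, 0.55 and 0.97 for the other-symbol proteins (0.98 with the block), -0.019, -0.385, -0.349 and 0.047 for assembly factors (0.047 with the block), and -0.037, -0.402, -0.367 and -0.054 for translation factors (-0.054 with the block). With 10 counts in every library the small subunit, assembly and translation factors were at 0.031, -0.151 and -0.169.

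Of the 78 genes, 3 were called lower, but 6 with library totals, 5 without the filter, 2 with upper-quartile scaling and with 10 counts in every library (without MRPL10), 1 with glmTreat and 7 with the trend removed, also with the block. In the large subunit these were 5 with library totals, 1 with glmTreat and 6 with the trend removed, also with the block, and glmTreat called 7 higher. In the small subunit, upper-quartile scaling called 8 higher, and 1 was called lower with library totals, without the filter, with the trend removed, also with the block, and when MRPS genes were grouped by symbol. Of the other-symbol proteins, 1 was called higher with library totals and without the filter, and 0 with glmTreat. Of the translation factors, 2 were called lower with upper-quartile scaling and with glmTreat, and 3 with the trend removed, also with the block. The replicate block alone left 17 of the 78 genes called higher and 3 lower, and all of these were the genes called without it. Nothing says that the numbers pair the cultures.

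Leaving out each library in turn gave 16 to 18 genes higher and 3 to 5 lower of the 78 (5 without CPI-455 replicate 1), with medians of 0.30 to 0.36. The large subunit had 10 to 11 higher, 3 to 4 lower and medians of 0.37 to 0.49, and the small subunit 5 to 6 higher, 0 to 1 lower and medians of -0.029 to 0.047. The other-symbol proteins had 1 to 2 higher, assembly factors medians of -0.36 to -0.12, and translation factors 3 to 5 lower (3 without vehicle replicate 2) with medians of -0.32 to -0.18. The lone library is then assumed to vary like the other group.

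Direction turned for the following genes, most of them near 0. With upper-quartile scaling MRPL18, MRPL30 and MRPS18C were at 0.15, 0.13 and 0.14, and with 10 counts in every library MRPL18 and MRPS18C were at 0.018 and 0.0063. With the trend removed, and then with the block added, MRPL30 was at 0.17 and 0.18, MRPS34 at -0.25 and -0.25, MRPS26 at -0.68 and -0.68, MRPS18C at 0.45 and 0.43, and AURKAIP1 at -0.084 and -0.085. MRPS35 was at -0.18 with library totals and -0.14 without the filter. With a library left out, MRPS35 ranged from -0.11 to 0.060, MRPL30 from -0.139 to 0.0080, MRPS18C from -0.215 to 0.043 and MT-RNR1 from -0.851 to 0.165, below 0 without CPI-455 replicate 1 and above 0 without CPI-455 replicate 2 for MRPS18C and MT-RNR1. The cause of these changes was not tested. The CPI-455 libraries hold fewer counts than the vehicle libraries, which limits the values of low genes such as MRPS24.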

Other observations

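Long non-coding RNAs named after mitoribosomal genes were counted beside them and gave values that belong in none of the comparisons above. MRPL23-AS1 was counted 7 times in each vehicle library against 35 and 26 times with CPI-455, a log2 fold change of 3.76 (FDR = 0.000638, edgeR's quasi-likelihood test). MRPS9-AS1 was counted 3 and 5 times with vehicle against 21 and 15 times with CPI-455 (3.77, FDR = 0.00157). The genes they are named after, MRPL23 and MRPS9, had log2 fold changes of 0.74 and 1.48. Since strand was not used, fragments of a gene and of its antisense partner cannot be told apart where they overlap. Those on exons of both genes were skipped and so counted for neither. MRPL20-AS1 went the other way, from 376 and 350 counts to 105 and 56 (-0.56, FDR = 0.0466), beside an MRPL20 that lay above 0 (0.49, FDR = 0.0102). MRPS30-DT was counted 31 and 23 times with vehicle against 3 and 0 times with CPI-455 (-2.55, FDR = 0.0429), beside MRPS30 at 0.36. The counts behind MRPL23-AS1, MRPS9-AS1 and MRPS30-DT are few.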
